A study of Mus musculus with 6 samples.

Results

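The genes described here are 32 B lineage genes measured in RNA from splenic preparations labelled as CD4+ T cells. They were taken by name from a list of B cell symbols, and all 32 were found among the 35602 genes of the count table and among the 34714 genes of each single-library table. All 32 also passed the filter on low counts, so that each is among the 16269 genes tested. By textbook knowledge 13 of them are largely restricted to B cells in spleen, and 19 are also used by other leukocytes.

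B cells sense antigen with a surface immunoglobulin that signals through the Cd79a and Cd79b chains. Src-family and Syk kinases, Btk, the adaptor Blnk and the phospholipase Plcg2 carry that signal inward, while co-receptors such as Cr2 and Cd22 raise or lower it. The transcription factors Ebf1 and Pax5 install and hold the B cell programme, and in the spleen B cells lie next to the T cell zones.

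The study took CD4+ T cells from mouse spleen, with an isolation kit by its methods and by a sort in the words of the series design, activated them through CD3 and CD28, and compared MAPK13-IN-1, an inhibitor of the p38 family kinase MAPK13, with the DMSO vehicle. There were 6 libraries, 3 per group. For replicates 2 and 3 the labels give genotype WT, CD3/CD28 costimulation, and 17.1 µM inhibitor or 0.1 µL DMSO added to the medium after day 1, whereas the series design describes 72 h in the presence of inhibitor or DMSO. For replicate 1 of each group the labels name the treatment but no genotype or dose. Replicates 2 and 3 were made with poly-T beads and are given as read counts. Their totals were 26874805 and 28487403 counts with DMSO and 33854760 and 32617702 counts with the inhibitor. The replicate 1 libraries, from a kit that keeps strand, are given as normalised values. Their scale behaved as FPKM, fragments scaled by gene length and library size, and their depth is unknown. The labels do not say that replicates came from separate animals or cultures, so the p-values measure only the spread between these libraries, which may be technical. The replicate 1 pair has 1 library per group and enters no test.

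The cell type label was first set against marker genes, as CPM, counts scaled by the library total, per kilobase of exon, the scale on which levels of different genes can be compared. Cd4 stood at 84.8 and 84.7 CPM per kb with DMSO and at 90.1 and 94.6 with the inhibitor. Cd3e, a signalling chain of the T cell receptor, stood at 69.1 and 67.3 with DMSO and at 25.1 and 32.6 with the inhibitor. Both T cell markers were therefore present in every count library, Cd3e at a lower level with the inhibitor. Cd79a stood at 119 and 111 CPM per kb with DMSO and at 145 and 140 with the inhibitor. Cd79b stood at 123 and 126 with DMSO and at 156 and 149 with the inhibitor. On this scale both B cell receptor chains exceeded Cd3e and Cd4 in all 4 count libraries. Of the 17 T cell genes measured, 3 exceeded both chains in each DMSO library, Lck, Cd5 and Lat, and 0 did so in the inhibitor libraries. Transcripts that define B cells were thus present in replicates 2 and 3 at levels comparable with single T cell genes, although the label names CD4+ T cells, and the purity of the preparations was not tested. Cd8a and Cd8b1, which mark CD8 T cells, stood at means of 0.838 and 5.52 CPM per kb with DMSO and 0.343 and 3.97 with the inhibitor (n = 2).

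The replicate 1 pair looked different. Cd79a was at 9.40 FPKM with DMSO and 5.44 with the inhibitor, against 74.6 and 70.2 FPKM for Cd3e and 118 and 146 FPKM for Cd4. B cell receptor transcripts were thus below 16 of the 17 T cell genes in the DMSO library and below all 17 in the inhibitor library. The ratio of Cd79a to Cd3e was 1.73 and 1.65 in the DMSO count libraries, 5.79 and 4.30 in the inhibitor count libraries, and 0.126 and 0.0774 in the DMSO and inhibitor libraries of replicate 1. Most of that difference between the groups of count libraries lay in Cd3e, which fell by 1.37 on the log2 scale. The ratio of Cd79a to Cd4 was 1.41 and 1.31 in the DMSO count libraries, 1.61 and 1.48 in the inhibitor count libraries, and 0.0798 and 0.0373 in the replicate 1 pair. Over Cd4 the groups of count libraries were thus much closer, and the gap to replicate 1 remained.

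Levels were also summed over whole lists. The summed level of the 13 B-restricted genes was 406 and 399 CPM per kb with DMSO and 496 and 489 with the inhibitor, or 403 ± 4.99 against 493 ± 5.17 (SD, n = 2). Cd79a and Cd79b alone made up 242 and 237 CPM per kb of this sum with DMSO and 301 and 289 with the inhibitor. Of the 13 genes, 8 were called higher and 3 lower. The sums use library totals, a scaling under which the median log2 fold change of all genes tested was 0.14. The summed level of 17 T cell genes was 1375 ± 16.0 CPM per kb with DMSO and 875 ± 45.6 with the inhibitor (SD, n = 2), a difference in the other direction. As a percentage of the T cell sum, the B-restricted sum was 29.8 and 28.8 with DMSO and 58.9 and 53.9 with the inhibitor. In the replicate 1 pair it was 2.21 with DMSO and 1.61 with the inhibitor. The groups of count libraries did not overlap in this percentage, although an exact permutation test of 2 against 2 cannot give a p below 0.333, and both replicate 1 libraries lay far below them. The count and FPKM tables were normalised separately and come from different library protocols, so the gap between them was not tested. In bulk RNA, fewer cells of a type and less RNA per cell cannot be told apart.

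**Figure D1:**
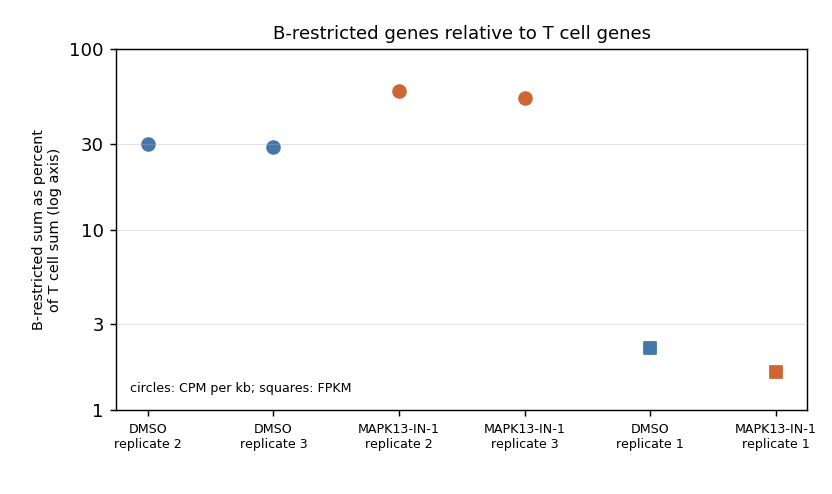
Summed level of the 13 B-restricted genes as a percentage of the summed level of 17 T cell genes in each of the 6 libraries, on a log axis, with 1 point per library (circles, CPM per kb; squares, FPKM). The DMSO count libraries sit at 29.8 and 28.8, the inhibitor count libraries at 58.9 and 53.9, and the replicate 1 pair at 2.21 and 1.61.

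Of the 32 genes, 19 were higher and 5 were lower with the inhibitor at an adjusted p under 0.05, and 8 had no call. That is 59.4% higher and 15.6% lower, beside 31.5% and 32.3% of all 16269 genes tested. Their median log2 fold change was 0.36, with an interquartile range from -0.04 to 0.67, beside a median of 0.01 over all genes. The B-restricted genes had 8 higher and 3 lower of 13 with a median of 0.23, and the broadly expressed genes 11 higher and 2 lower of 19 with a median of 0.36. Without MAPK13-IN-1 replicate 2 these medians were 0.39 and 0.32, so that their order turned. More of the list was called higher than of the table, and fewer genes were called lower. Without the third MAPK13-IN-1 library 8 genes were called lower, while the number higher was 20. A fit without 1 library leaves 1 sample in its group, which is assumed to vary like the other group, and the spread then comes from the remaining pair alone. The DMSO libraries differed less from each other than the inhibitor libraries (median chi-square per gene 1.02 against 2.16), so calls gained without an inhibitor library rest on the closer pair and have no inhibitor replicate. In 26 of the 32 genes (81.2%) the DMSO and inhibitor libraries did not overlap, a share near the 83% of all genes tested. Counts of the 32 genes ran from 135 to 16260 in a library.

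**Figure D2:**
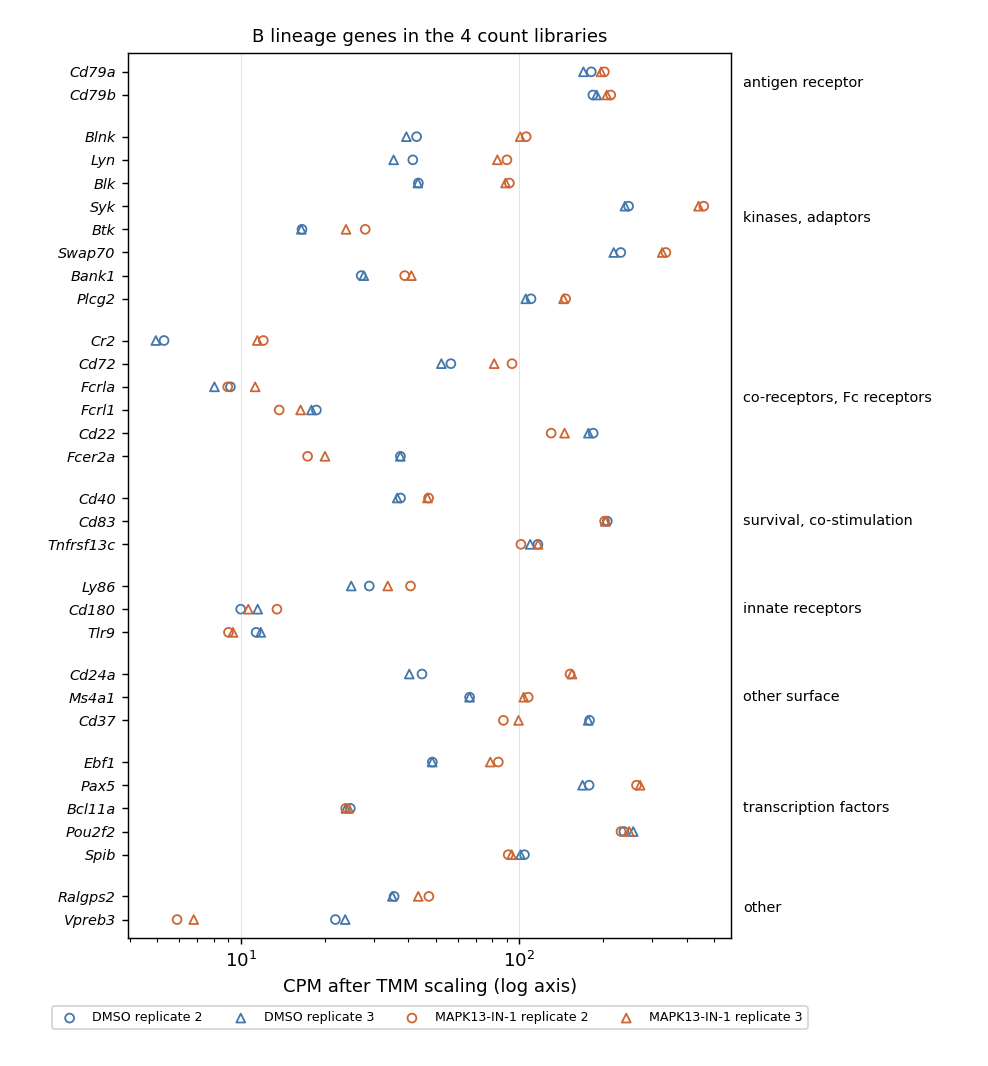
Level of each of the 32 B lineage genes in the 4 count libraries, as CPM after TMM scaling on a log axis, grouped by role, with DMSO in blue and MAPK13-IN-1 in orange (circles, replicate 2; triangles, replicate 3). The inhibitor libraries lie to the right for all 8 kinases and adaptors and to the left for Vpreb3, Fcer2a, Cd37, Cd22 and Tlr9. They also lie to the left for Spib and Fcrl1, which had no call.

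The antigen receptor chains themselves rose by small amounts. Levels from here on are CPM after TMM scaling, which compares 1 gene between libraries. Cd79a, which carries an activation motif in its cytoplasmic tail, was at 181 and 170 with DMSO and at 202 and 196 with the inhibitor, a log2 fold change of 0.18 (SE 0.0582, adjusted p = 0.0185). Cd79b, its partner, was at 183 and 189 with DMSO and at 213 and 206 with the inhibitor, a log2 fold change of 0.17 (SE 0.0552, adjusted p = 0.0218). Both were higher in 2 of 2 inhibitor libraries, by less than most of the other called genes. Without a DMSO library the spread came from the inhibitor pair alone, and neither call held. Without DMSO replicate 2 the log2 fold change was 0.22 for Cd79a (adjusted p = 0.0699) and 0.13 for Cd79b (adjusted p = 0.286). Without DMSO replicate 3 it was 0.13 for Cd79a (adjusted p = 0.310) and 0.18 for Cd79b (adjusted p = 0.137), so 2 of these 4 values were above those from all 4 libraries and all kept their direction. The levels of these chains per kilobase ranked first and second of the 32 genes in both groups.

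In the count libraries every one of the 8 kinases and adaptors downstream of the receptor was called higher with the inhibitor, beside 31.5% of all genes tested. The median log2 fold change of this role was 0.77. In the replicate 1 pair 3 of the 8 were higher and 5 lower, with a median log2 ratio of -0.08. Blnk, the adaptor that links Syk to Btk and Plcg2, was at 42.8 and 39.3 with DMSO and at 106 and 101 with the inhibitor. Its log2 fold change was 1.33 (SE 0.0722, adjusted p = 2.06e-07), the second largest rise of the list. Lyn, the Src-family kinase that both starts and restrains receptor signals, was at 41.5 and 35.4 with DMSO and at 90.2 and 83.3 with the inhibitor, a log2 fold change of 1.18 (SE 0.0871). Blk, the Src-family kinase that is the more B-restricted of these kinases, was at 43.4 and 43.2 and at 92.0 and 89.2, a log2 fold change of 1.06 (SE 0.0668). In these 3 genes the inhibitor libraries held more than 2-fold the DMSO level and no library overlapped. Syk, which docks on the phosphorylated receptor chains, was at 246 and 239 with DMSO and at 458 and 439 with the inhibitor, a log2 fold change of 0.89 (SE 0.0530). Btk, a Tec-family kinase, was lower in level, at 16.6 and 16.5 with DMSO and at 28.0 and 23.9 with the inhibitor (0.65, SE 0.108). Both kinases therefore rose with the inhibitor. Swap70, a guanine exchange factor of activated B cells, Bank1, a scaffold protein, and Plcg2 had smaller log2 fold changes of 0.56, 0.54 and 0.43.

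The co-receptors and Fc receptors moved in both directions. Cr2, the complement receptor that binds C3d-tagged antigen, was at 5.31 and 4.96 with DMSO and at 12.1 and 11.5 with the inhibitor, a log2 fold change of 1.20 (SE 0.136, adjusted p = 2.83e-05). Its level per kilobase was the lowest of the 32 genes in both groups. Fcer2a, the low-affinity IgE receptor CD23 of follicular B cells, was at 37.4 and 37.4 with DMSO and at 17.4 and 20.1 with the inhibitor. It fell by 1.00 on the log2 scale (SE 0.0970, adjusted p = 9.07e-06), with no overlap. These complement and IgE receptors, both found on mature B cells, thus went opposite ways. Cd22, a sialic acid lectin that inhibits the receptor, was at 184 and 177 with DMSO and at 130 and 145 with the inhibitor and fell by 0.39 (SE 0.0665). Cd72, another inhibitory receptor, was at 56.8 and 52.5 with DMSO and at 94.1 and 81.2 with the inhibitor, a log2 fold change of 0.68 (SE 0.0840). The inhibitory receptors were hence also split. Fcrl1 (log2 fold change -0.28, adjusted p = 0.0548) and Fcrla (0.23, adjusted p = 0.200), members of the Fc receptor-like family, had no call. In the edgeR fit with a replicate block, Fcrl1 was called lower (adjusted p = 0.0338).

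Among surface proteins of other roles, Cd24a had the largest rise of the list. This glycosylphosphatidylinositol-anchored protein is high on immature B cells and on several other leukocytes. It was at 44.7 and 40.3 with DMSO and at 152 and 154 with the inhibitor, a log2 fold change of 1.85 (SE 0.0704, adjusted p = 2.47e-08). Ms4a1, which encodes CD20, was at 66.3 and 66.2 with DMSO and at 108 and 104 with the inhibitor, a log2 fold change of 0.67 (SE 0.0627). Cd37, a tetraspanin of mature B cells that T cells also carry, was at 178 and 177 with DMSO and at 87.6 and 99.2 with the inhibitor, and fell by 0.93 (SE 0.0693, adjusted p = 1.54e-06). Both inhibitor libraries were above both DMSO libraries for Cd24a and Ms4a1 and below them for Cd37.

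Of the 3 genes for survival and co-stimulation, 1 was called in the count libraries. Cd40, the receptor for T cell help, was at 37.5 and 36.4 with DMSO and at 47.2 and 46.8 with the inhibitor, a log2 fold change of 0.35 (SE 0.0752, adjusted p = 0.00221). Cd83, an activation marker of B and dendritic cells, was at 207 and 203 against 202 and 204, and Tnfrsf13c, the BAFF receptor, at 116 and 109 against 101 and 117. The libraries of the last 2 genes overlapped and neither had a call. Of the innate receptors, Ly86, the partner of Cd180, had a log2 fold change of 0.47 (SE 0.112), and Cd180 itself 0.17 with no call. Tlr9, the endosomal sensor of unmethylated DNA, was at 11.4 and 11.8 with DMSO and at 9.04 and 9.38 with the inhibitor, a log2 fold change of -0.33 (adjusted p = 0.0339). That call was lost with DESeq2 (log2 fold change -0.32, adjusted p = 0.149) and with upper-quartile scaling (-0.25, adjusted p = 0.0941). It was also lost with library totals (-0.21, adjusted p = 0.160) and with at least 10 counts required in each library (-0.29, adjusted p = 0.0638). Leaving out DMSO replicate 2, DMSO replicate 3 or MAPK13-IN-1 replicate 2 lost it too, each with the spread of the remaining pair. The log2 fold changes were then -0.37, -0.31 and -0.30, so the fall itself stayed about as large.

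Of the 5 transcription factors, 2 rose and 3 had no call. Pax5, which holds B cell identity, was at 178 and 168 with DMSO and at 263 and 271 with the inhibitor, a log2 fold change of 0.62 (SE 0.0563, adjusted p = 5.34e-06). Ebf1, which acts with it from the progenitor stage on, was at 48.7 and 48.7 against 84.0 and 78.6, a log2 fold change of 0.74 (SE 0.0694). Both lineage-defining factors rose without overlap. Spib (-0.15, adjusted p = 0.0527), Pou2f2, which encodes Oct-2 (-0.04, adjusted p = 0.572), and Bcl11a (-0.01, adjusted p = 0.919), which are shared with other leukocytes, had no call. In the fits with 1 inhibitor library, where the DMSO pair alone gives the spread, some genes passed the threshold that did not pass it with all 4 libraries. Without MAPK13-IN-1 replicate 3 these were Spib (log2 fold change -0.18, adjusted p = 0.00507), Fcrl1 (-0.42, adjusted p = 0.000947), Tnfrsf13c (-0.16, adjusted p = 0.00775) and Cd180 (0.32, adjusted p = 0.0253). Without MAPK13-IN-1 replicate 2 they were Spib (-0.13, adjusted p = 0.0473) and Fcrla (0.39, adjusted p = 0.0141). No inhibitor replicate stands behind these calls, and the 5 genes are counted here as having no call.

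Vpreb3 had the largest fall of the list. It encodes a small immunoglobulin-domain protein that associates with the receptor chains during assembly. It was at 21.9 and 23.7 with DMSO and at 5.92 and 6.79 with the inhibitor, a log2 fold change of -1.84 (SE 0.122, adjusted p = 6.80e-07), or 3.59-fold lower. Per kilobase it ranked 11 of 32 with DMSO and 25 with the inhibitor. Ralgps2, a guanine exchange factor for Ral, rose by a log2 fold change of 0.36. Over the list, 5 genes had a log2 fold change above 1 (Cd24a, Blnk, Cr2, Lyn and Blk), or 15.6%, a share near the 14.2% of all genes tested. Vpreb3 alone was below -1, or 3.12% of the list beside 10.8% of all genes. Fcer2a, at -0.9988, lay close to that limit, and leaving out each library gave -1.11 to -0.90 for it. The same fits gave -1.03 to -0.84 for Cd37, so the count below -1 depends on the libraries used.

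**Figure D3:**
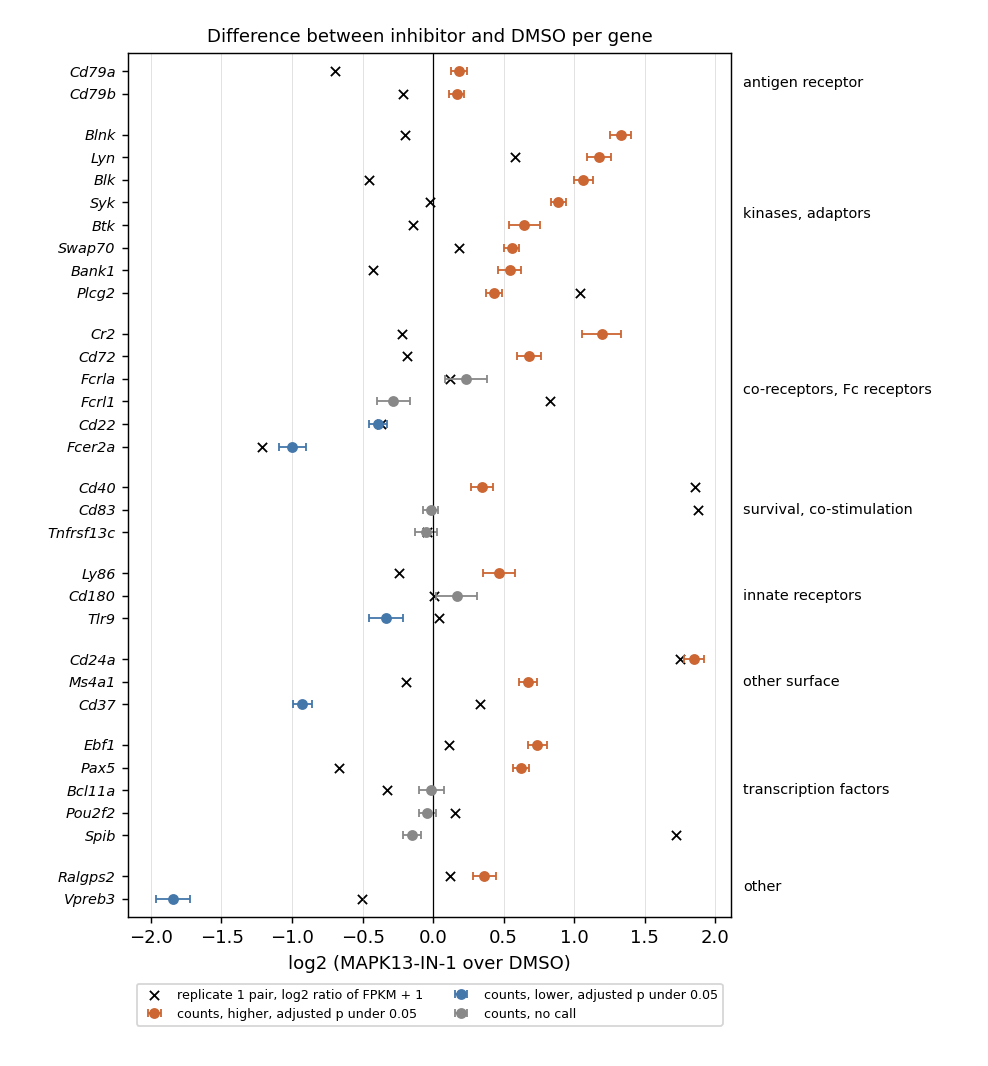
Log2 fold change between MAPK13-IN-1 and DMSO for each of the 32 genes, from the 4 count libraries (circles, with bars of 1 SE; orange higher, blue lower, grey no call) and from the replicate 1 pair (crosses, log2 ratio of FPKM with a pseudocount of 1, no test). Cd24a stands at 1.85 and Vpreb3 at -1.84 in the counts, and the crosses for Cd40, Cd83 and Spib lie far to the right of the circles.

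The replicate 1 pair gave a different picture of the same genes. There 15 of the 32 genes were higher and 17 lower with the inhibitor, and the median log2 ratio was -0.03, beside 0.05 over the 10448 genes at 1 FPKM or more in both libraries, of which 54.3% were higher. Of the 19 genes higher in the counts 7 were also higher in the pair and 12 were lower, and of the 5 genes lower in the counts 3 were also lower. Of the 13 B-restricted genes 10 were lower in the pair, and of the 19 broadly expressed genes 12 were higher. Among those at 1 FPKM or more in both libraries, 7 of 7 B-restricted genes were lower, and 9 of 15 broadly expressed genes were higher, a share near that of all genes. Among the B-restricted genes, Pax5 was at 2.59 FPKM with DMSO and 1.27 with the inhibitor. Cd79a was at 9.40 and 5.44 FPKM, and Fcer2a at 5.27 and 1.70 FPKM. Ms4a1 was at 2.49 and 2.06 FPKM. These genes were lower in the inhibitor library, and of them only Fcer2a had also fallen in the counts. Among the broadly expressed genes, Cd83 was at 27.4 and 103 FPKM and Cd40 at 6.26 and 25.3 FPKM. Spib was at 2.47 and 10.5 FPKM, and Cd24a at 3.10 and 12.8 FPKM. Of these 4 genes, Cd24a and Cd40 had also been called higher in the counts, Cd40 by a far smaller difference. With 1 library per group these differences have no replicate check.

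Markers of other cell types moved with both sets of libraries, and their part in these results was not tested. Of 8 conventional dendritic cell genes 5 were tested, 4 higher and 1 lower, the transcription factor Batf3 (log2 fold change -3.19). Scaled by length, their summed level was 34.1 and 34.4 CPM per kb with DMSO and 13.8 and 13.9 with the inhibitor, while it was 29.9 and 50.5 FPKM in the DMSO and inhibitor libraries of replicate 1. Without scaling by length the sum was 43.2 and 43.5 CPM with DMSO and 64.0 and 54.9 CPM with the inhibitor, so its direction in the count libraries depends on that scaling. Batf3 was the most abundant gene of this list per length in the DMSO count libraries, at 31.0 CPM per kb against 3.70 with the inhibitor, and was at 26.6 and 35.9 FPKM in the pair. Zbtb46, another dendritic cell transcription factor, was at 1.94 and 8.75 FPKM in that pair and had a log2 fold change of 1.45 in the counts, and Cd209a was at 0 in all 4 count libraries. In the replicate 1 pair 5 of the 8 dendritic cell genes were higher with the inhibitor and 0 were lower. Of all genes at 1 FPKM or more in both libraries 54.3% were higher. Cd40, Cd83 and Spib were also higher in that pair, and a link to the dendritic cell genes was not tested. Of 12 macrophage genes 7 were tested, 6 higher and 1 with no call, and their summed level was 12.0 and 10.7 CPM with DMSO, 43.7 and 35.1 CPM with the inhibitor, and 3.06 and 11.5 FPKM in the pair. Cd68, a lysosomal protein, was the most abundant of them, and C1qa, C1qb, C1qc, Mertk, Fcgr1 and Vcam1 had at most 3 counts in each DMSO library. Of 8 erythroid genes 7 were tested, 5 higher and 1 lower, with a summed level of 10.1 and 9.76 CPM against 95.4 and 68.8 CPM and Hbb-bs the most abundant in the counts. In the replicate 1 pair the erythroid sum was 1.00 and 2.03 FPKM.

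The 17 T cell genes had 13 lower and 4 with no call, with a median log2 fold change of -0.71. Lck, the Src-family kinase of T cells, was at 346 and 363 CPM with DMSO and at 148 and 161 CPM with the inhibitor. Its log2 fold change was -1.20 (adjusted p = 1.4e-07). In the count libraries the summed T cell level was lower where the summed B-restricted level was higher, although single genes of both lists departed from this. The T cell list of the replicate 1 pair summed to 2053 FPKM with DMSO and 1999 with the inhibitor. Of the other lists, CD8 T cells had 2 of 2 lower, Cd8a and Cd8b1, with a summed level of 6.56 and 6.16 CPM per kb with DMSO and 3.60 and 5.02 with the inhibitor. In the replicate 1 pair both were higher with the inhibitor, and their sum was 3.49 and 8.39 FPKM, the opposite direction. The tested genes of other lists were split, with plasmacytoid dendritic cells at 1 higher, Tcf4, and 1 lower, Cox6a2, of 4. Follicular and stromal cells had 2 of 3 lower, Madcam1 and Pdgfrb, with Col1a1 at a log2 fold change of 0.43 and no call, and DESeq2 called 1 gene of this list. NK cells had 1 of 2 higher, Klrk1, and neutrophils 1 of 1, Mpo, which had 2 counts in each DMSO library. With DESeq2 0 genes of these last lists were called, and Klra8 and S100a9 were at 0 in all 4 count libraries. In the DMSO and inhibitor libraries of replicate 1 the sums were 24.2 and 5.75 FPKM for plasmacytoid dendritic cells, 0.615 and 1.67 for follicular and stromal cells, 1.08 and 5.39 for NK cells and 0.567 and 0.368 for neutrophils. Cox6a2 alone was at 22.5 and 2.39 FPKM in these libraries. Of the 6 plasmacytoid dendritic cell genes, 4 were higher there with the inhibitor and 1 was lower.

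Other genes of the B cell receptor pathway were listed apart, and their difference from the kinases and adaptors was not tested. Of 24 such genes, 18 were higher, 2 were lower and 4 had no call, with a median log2 fold change of 0.61. Pik3cd, the leukocyte PI3-kinase catalytic subunit, had the highest CPM, without scaling by length, at 574 ± 9.69 and 598 ± 28.6 CPM (SD, n = 2), with no call. Fcgr2b, the inhibitory IgG receptor of B cells and myeloid cells, was at 22.8 ± 0.564 CPM with DMSO and 110 ± 3.15 with the inhibitor, a log2 fold change of 2.27 (SE 0.0721, adjusted p = 1.14e-08). Pik3ap1, an adaptor for PI3-kinase, had a log2 fold change of 0.98. Signalling genes of this pathway were thus mostly higher.

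Stage markers gave no single direction. Of 4 marginal zone B cell genes 3 were higher, Dtx1, Cd9 and Cd1d1, with log2 fold changes of 0.86, 1.20 and 1.00. Of 7 plasmablast genes tested 3 were lower and 3 higher. Xbp1, a secretory cell transcription factor, had a log2 fold change of -1.28, Irf4, which also acts in activated T cells, of -0.65, and Derl3, an endoplasmic reticulum protein, of -1.71. The higher genes were Jchain, which joins immunoglobulin units, at 1.24, the surface proteoglycan Sdc1 at 1.28 and the chaperone Mzb1 at 0.46. Of 3 precursor genes tested 0 had an adjusted p under 0.05 with edgeR, 0 an unadjusted p under 0.05 and 0 a call with DESeq2. Dntt was the most abundant and Rag2 was at 0 in all 4 libraries. Immunoglobulin genes were not analysed here.

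Some of these genes share exon bases with a neighbour, and the strand used for counting is not given in the sources used here, so that reads from the overlapped stretch cannot be told apart. Cd72 (chr4:43446462-43454628, minus strand, build GRCm38) shares 1423 exon bases with Tesk1 on the opposite strand. Tesk1 had a log2 fold change of -0.45, opposite to that of Cd72. Cd22 shares 463 exon bases with Gm29439, Swap70 395 with Gm45515, Bcl11a 316 with 4930538E20Rik, Lyn 248 with Gm26857 and Cd180 182 with Mast4, all on the opposite strand. Vpreb3 (chr10:75943057-75949657, plus strand) and Blnk (chr19:40928927-40994535, minus strand) share none with an annotated gene.

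Promoter sequences from RefSeq (GRCm38.p6, 250 bases before to 50 after each start) were matched for 25 of the 32 genes, with 31 promoters. Cd79b, Blk, Lyn, Ms4a1, Cd40, Cd83 and Cd24a were not matched. Each was searched on both strands for the octamer ATGCAAAT, which Oct factors bind, for the EBF core CCCNNGGG and for the Spi-B and PU.1 core GAGGAAG. The octamer was in 3 promoters, those of Vpreb3, Blnk and Tlr9 (9.68%, beside 1.74% of all 32851 promoters). The EBF core was in 3 (9.68%, beside 13.7%), and the Spi-B and PU.1 core in 5 (16.1%, beside 13.6%). Those of Vpreb3 and Blnk are shown because the gene with the largest fall and the gene with the second largest rise both hold the octamer, here in capitals as its reverse complement ATTTGCAT. The match begins at position -45 in Vpreb3 and -130 in Blnk, counted from the start in the RefSeq promoter table. That start is at 75948300 for Vpreb3, which is the start of 1 of its 2 GENCODE transcripts and lies 5243 bases inside the GENCODE gene span given above. For Blnk it is at 40994221, 314 bases inside the GENCODE span and at the start of 0 of its 2 GENCODE transcripts. Vpreb3 is read from chr10:75948050-75948349 on the plus strand, and Blnk from chr19:40994172-40994471 on the minus strand.
Vpreb3: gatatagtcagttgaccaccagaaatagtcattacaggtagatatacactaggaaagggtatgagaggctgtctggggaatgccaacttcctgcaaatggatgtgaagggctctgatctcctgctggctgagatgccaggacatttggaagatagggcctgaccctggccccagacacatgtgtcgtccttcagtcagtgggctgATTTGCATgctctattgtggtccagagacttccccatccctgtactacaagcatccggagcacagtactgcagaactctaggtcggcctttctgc
Blnk: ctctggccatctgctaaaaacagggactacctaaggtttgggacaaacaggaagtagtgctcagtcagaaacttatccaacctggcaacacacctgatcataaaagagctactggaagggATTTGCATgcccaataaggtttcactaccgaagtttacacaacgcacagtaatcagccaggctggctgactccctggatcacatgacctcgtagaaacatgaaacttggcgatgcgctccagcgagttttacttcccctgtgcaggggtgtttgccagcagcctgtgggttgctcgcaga
Genes that carry this motif thus changed in both directions, and a match is a description of the sequence.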

How the data were processed

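RNA-seq of 6 libraries was analysed. Per the labels, reads of replicates 2 and 3 were processed by the authors with fastp 0.21.0, HISAT2 2.1.0 (mm10), StringTie 2.1.5 and DESeq2 1.30.1, and deposited as gene counts. The deposited replicate 1 values came from HISAT2 and were treated as FPKM because, across 10155 genes, log2(FPKM/CPM) fell with log2 exon length (slope -0.862). No whole-read steps were found in them.

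Counts were fitted with edgeR 4.0.16 (R 4.3.3; filterByExpr with a minimum count of 10, TMM, quasi-likelihood test, Benjamini-Hochberg over 16269 genes), which was tested on simulated data. Log2 ratios of FPKM used a pseudocount of 1. Levels per kilobase used library totals and merged GENCODE M21 exons. Alternatives were other scalings, filters, a replicate block, DESeq2 1.42.0, a stricter threshold and leaving out each library.

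Members and lists were chosen with earlier results of these data known. All members could be named, and of other lists the most abundant gene (by mean CPM), the 3 smallest p-values and markers at 0. Cd3e, Cd4, Cd5, Lat, Tesk1, Jchain, Sdc1, Mzb1 and the low-count macrophage markers were chosen after their values were seen. Of the T cell list 17 of 20 symbols, and of the 12 immunoglobulin symbols 0, were matched. Some genes that this rule names are not reported here.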

Additional observations from a re-analysis of the deposited data

How the results depend on the processing

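Of the 32 genes, 17 to 20 were higher under every alternative run, and 4 to 6 were lower except without MAPK13-IN-1 replicate 3. Leaving out each library in turn gave 4 to 8 lower, 17 to 20 higher, a median log2 fold change of 0.33 to 0.38 and, for the broadly expressed genes, of 0.32 to 0.42 and, for the B-restricted genes, of 0.18 to 0.39, the last without MAPK13-IN-1 replicate 2. The median of the 32 genes was 0.37 with RLE scaling and 0.37 with DESeq2, 0.44 with upper-quartile scaling, 0.48 with library totals and 0.40 with at least 10 counts in each library. That of the broadly expressed genes was 0.44, 0.49 and 0.41 under the last 3, and that of the B-restricted genes 0.31, 0.36 and 0.28. Library totals moved the median of all genes to 0.14 and dropping the filter to 0.16, so 0.48 is read against the first of these shifts. In the replicate 1 pair the median log2 ratio was -0.039 with a pseudocount of 0.1 and -0.091 over the 22 genes at 1 FPKM or more in both libraries.

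Under these alternatives the sign turned in 5 of the 32 genes, none of them called with all libraries and TMM scaling. Other scalings and filters moved all genes nearly alike. The shift of each of the 32 genes was 0.080 to 0.081 with upper-quartile scaling, 0.12 to 0.13 with library totals, 0.045 with at least 10 counts in each library, 0.014 with RLE scaling and 0.014 with DESeq2, beside median shifts of 0.081, 0.13, 0.045, 0.014 and 0.014 over all genes. These common shifts carried 4 genes past 0. With upper-quartile scaling and with library totals, Tnfrsf13c was at 0.029 and 0.074, Cd83 at 0.065 and 0.11, Pou2f2 at 0.039 and 0.084, and Bcl11a at 0.069 and 0.11. With at least 10 counts in each library, Cd83 was at 0.030, Pou2f2 at 0.0035 and Bcl11a at 0.033. Bcl11a was at 0.0024 with RLE scaling and 0.0024 with DESeq2. Leaving out each library, where the lone library of a group is assumed to vary like the other group, turned 4 genes. It gave -0.16 to 0.048 for Tnfrsf13c, -0.11 to 0.0065 for Pou2f2, -0.046 to 0.0066 for Bcl11a and -0.015 to 0.32 for Cd180, and the cause was not tested.

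The correlation of same-numbered libraries between groups was 0.00412 over 10531 genes, so the numbers were not treated as pairing. With the replicate block 6 genes were lower and 19 higher. Fcrl1 was then called lower (log2 fold change -0.28, adjusted p = 0.0338).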
